A study of Caenorhabditis elegans with 3 samples.

Results

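Transcript levels of 10 genes of endocytosis and endosome traffic were examined in the nematode Caenorhabditis elegans, in young adult hermaphrodites of strain N2 with wild-type genotype. The genes are rme-1, rme-2, rme-8, rab-5, rab-7, rab-10, rab-11.1, dyn-1, cup-5 and lmp-1. They were listed by name and not by a cut on measured values, but with earlier results of these data known. All probe sets that the annotation of the array assigns to 1 of these symbols were taken, which gave 18 of 22625 probe sets and 10 of 17118 annotated genes. Total RNA of whole worms was hybridised to 1 Affymetrix array per time. The groups were untreated worms at 0 h, worms after 4 h and worms after 24 h of exposure to multiwall carbon nanotubes (MWCNT), which are tubes of nested carbon sheets. The nanotubes were given at 1 mg/L in K-medium, a salt solution, to worms raised on plates with Escherichia coli OP50 as food. No array of worms kept for 4 h or 24 h without nanotubes was part of the series, so exposure, time in the medium and age cannot be told apart.

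Endocytosis brings membrane and cargo into the cell in vesicles that pinch off the plasma membrane. The vesicles fuse with early endosomes, from which cargo either returns to the surface through recycling endosomes or passes through late endosomes to lysosomes. In C. elegans the pathway is known best from oocytes, which take up yolk, from the intestine, which recycles membrane at its apical and basolateral faces, and from coelomocytes, scavenger cells of the body cavity. Genes named rme (receptor-mediated endocytosis) were found in screens for failed yolk uptake, and genes named cup (coelomocyte uptake) in screens for failed uptake by coelomocytes. Small GTPases of the Rab family mark the compartments, with RAB-5 on early, RAB-7 on late, and RAB-10 and RAB-11 on recycling endosomes.

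The deposited values are normalized intensities on a linear scale, with array medians between 100.2 and 102.8. A ratio is given as the difference of log2(intensity + 32) between arrays, and the added 32 makes changes of dim probe sets look smaller. "Higher" or "lower" as a count means at least 2-fold, a log2 ratio of 1. Probe sets whose mean level reached the median of all probe sets were kept, and a gene was represented by its brightest kept probe set. By this filter 17 of the 18 probe sets and all 10 genes were measured, among 8634 genes and 10706 probe sets in all. There was 1 array per time, so no spread between replicates and no test exist, and precision is limited by the number of arrays. The only error measure was the disagreement between probe sets of a gene. Over 1830 genes with at least 2 kept probe sets, this technical SD of a log2 ratio was 0.24 for 4 h against 0 h, 0.47 for 24 h against 0 h and 0.29 for 24 h against 4 h. It reflects probes on the same array, and leaves out how animals, cultures and hybridisations vary. A ratio beyond it is not a call of change. The lower and upper quartiles of all genes were -0.17 and 0.19 at 4 h, and -0.39 and 0.31 at 24 h against 0 h. The share of all genes beyond the technical SD was not counted. Names containing _s_ mark probe sets that the manufacturer designed to match more than 1 transcript, which applies to 9 of the 18.

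Most of the 10 genes stayed near their 0 h level. At 24 h the recycling endosome gene rme-1 and the endosomal co-chaperone gene rme-8 were lower by their brightest probe sets, by 2.04-fold and 2.14-fold, and the dynamin gene dyn-1 was 1.73-fold lower, short of the threshold. A second probe set of rme-8 had a ratio in the other direction. A second probe set of the lysosomal membrane gene lmp-1 was 2.26-fold higher while the first was level. In 8 of the 8 comparable pairs of probe sets, from 6 genes, the brighter probe set had the lower ratio at 24 h. This held in 78.6% of all 1830 genes with several kept probe sets, so it is a trait of the whole array.

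At 4 h against 0 h, 0 of the 10 genes were higher and 0 lower, where 1.71% of all 8634 genes were higher and 3.25% lower. At 24 h against 0 h, 0 of 10 were higher and 2 were lower, where 5.32% of all genes were higher and 7.96% lower. At 24 h against 4 h, 0 were higher and 0 lower, against 2.28% higher and 3.22% lower of all genes. The 3 comparisons share arrays and are not independent of each other. Median log2 ratios of the 10 genes were -0.03, -0.14 and -0.13 in these comparisons, and those of all genes were 0.00, 0.00 and -0.005. Of the 10 genes, 6 had several kept probe sets, against 1830 of all 8634 genes. Over those 1830 genes the brighter probe set, which represents the gene, had the lower ratio at 24 h in 78.6%. The 10 genes and all genes are unlike in this respect, and its part in these medians and counts was not tested. At 24 h against 0 h all genes ran from -1.32 at the 5th percentile to 1.02 at the 95th, and the 10 genes ran from -1.10 (rme-8) to 0.40 (rme-2). Counted over probe sets at 24 h against 0 h, 1 of 17 was higher and 2 were lower, where 5.72% of all kept probe sets were higher and 7.06% lower. At 4 h against 0 h no probe set of the 10 genes passed 2-fold (1.68% of all were higher and 2.89% lower), and none did at 24 h against 4 h (2.2% higher and 2.81% lower).

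**Figure D1:**
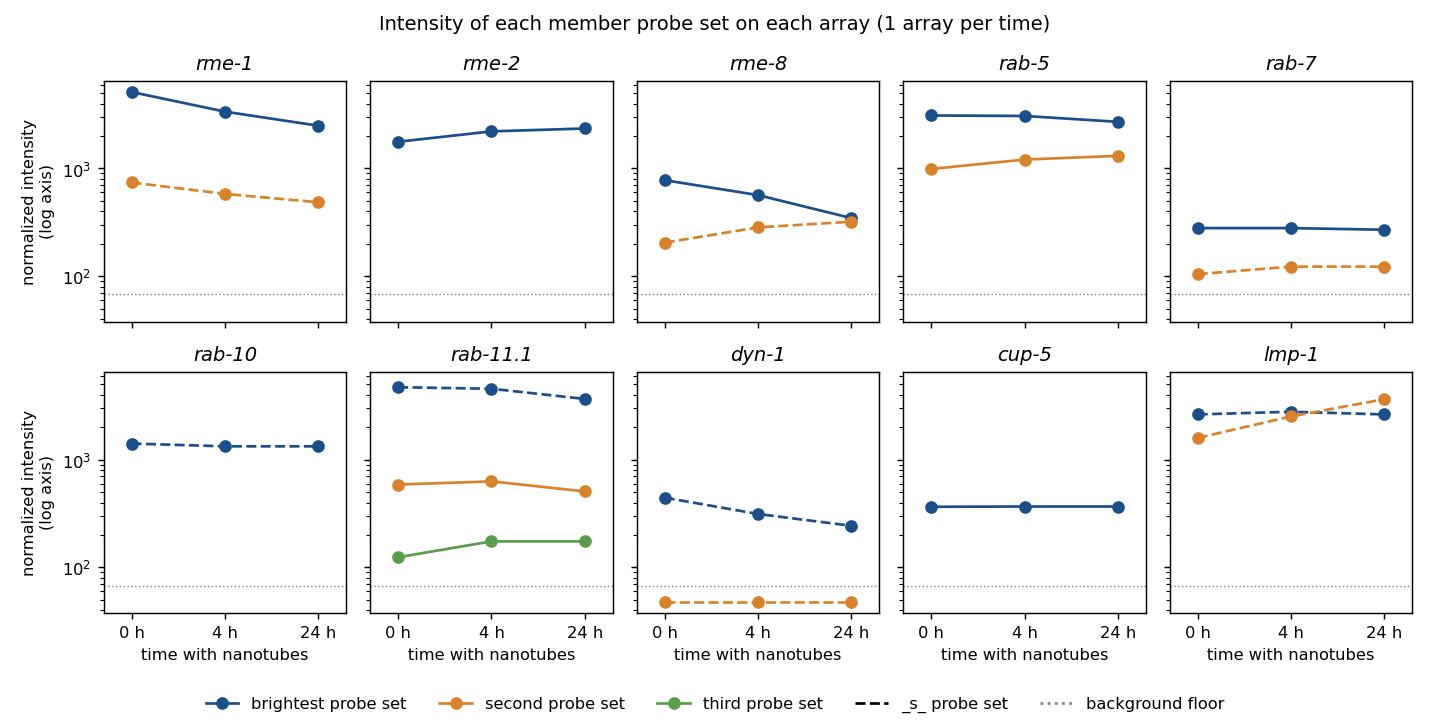
Normalized intensity (log axis) of each of the 18 probe sets at 0 h, 4 h and 24 h, 1 array per time, with a panel per gene, colours for the order of brightness within the gene, dashed lines for _s_ probe sets and a dotted line at the background floor of 67.8. The brightest probe sets of rme-1, rme-8 and dyn-1 slope down, the second probe sets of rme-8 and lmp-1 slope up, and the second probe set of dyn-1 lies under the floor at 47.5 on all 3 arrays.

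The yolk receptor gene rme-2 (T11F8.3) encodes a member of the low-density lipoprotein receptor family on the oocyte surface and has 1 probe set. Its intensity at 0 h was 1770.4, below the 2209.8 at 4 h and the 2352 at 24 h. The log2 ratio was 0.31 at 4 h and 0.40 at 24 h against 0 h, the highest of the 10 genes in both comparisons. The 4 h ratio exceeded the technical SD of 0.24 and the 24 h ratio lay within that of 0.47. Among its ligands, the yolk proteins, vit-2 was at 10159.5 at 24 h against 8249 at 0 h (log2 ratio 0.30) and vit-1 at 950.2 against 9514 (-3.28). The probe sets that represent vit-4, vit-5 and vit-6 had log2 ratios of -0.35, -0.20 and -0.03 at 24 h. Of 12 oocyte markers, 0 were higher and 2 lower at 24 h, mex-3 (-1.02) and puf-11 (-1.01), with a median of -0.10. The other kept probe set of mex-3 had a log2 ratio of 0.05, so no direction can be given for mex-3 as a gene. In RNA of whole worms, fewer cells of a type and less RNA per cell cannot be told apart.

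The gene dyn-1 (C02C6.1) encodes dynamin, the GTPase that pinches vesicles from the membrane. Its brighter probe set was at 444 at 0 h, 313 at 4 h and 243 at 24 h, each time lower than before. The log2 ratio was -0.46 at 4 h and -0.79 at 24 h, beyond the technical SD in both comparisons but short of 2-fold. The dimmer probe set was at 47.5 on all 3 arrays, an exact tie. That value lies under the background floor of 67.8, the brightest control for absent transcripts, so no change can be read from it. Both probe sets of dyn-1 are of the _s_ kind.

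Early endosomes are represented by rab-5 and rme-8. The GTPase RAB-5 drives fusion of incoming vesicles with early endosomes. The brighter probe set of rab-5 (F26H9.6) was at 3104 at 0 h, 3073 at 4 h and 2711 at 24 h. The dimmer was at 989.7, 1209.8 and 1309 at these times. The brighter one was therefore lowest at 24 h and the dimmer one highest, with log2 ratios of -0.19 and 0.39 at 24 h against 0 h, each within the technical SD. At 4 h they were -0.01 and 0.28, the dimmer one beyond the technical SD of 0.24. Neither probe set is of the _s_ kind.

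The protein RME-8 carries a DnaJ domain, by which co-chaperones recruit Hsc70, and acts on endosomes in sorting cargo away from degradation. The brighter probe set of rme-8 (F18C12.2) was at 779 at 0 h, 566 at 4 h and 346 at 24 h. The log2 ratio was -0.44 at 4 h and -1.10 at 24 h against 0 h, and -0.66 at 24 h against 4 h, and in both comparisons of 24 h it was the lowest of the 10 genes. The dimmer probe set, of the _s_ kind, was at 205 at 0 h, 284 at 4 h and 320.3 at 24 h. Its log2 ratios were 0.42 at 4 h and 0.57 at 24 h against 0 h. At 24 h the ratios of the pair differed by 1.67, where the root mean square difference over all 1830 pairs was 0.66, and no direction can be given for rme-8 as a gene. With a pseudocount of 100 the ratio of the brighter probe set was -0.98, short of 2-fold.

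Among recycling endosome genes, rme-1 was low at both times and by both of its probe sets. Its product is an ATPase of the EHD family that acts in the exit of cargo from recycling endosomes, and in the intestine it serves basolateral recycling. The brighter probe set of rme-1 (W06H8.1) was at 5131 at 0 h, 3371 at 4 h and 2495 at 24 h, with log2 ratios of -0.60 at 4 h and -1.03 at 24 h against 0 h. The dimmer, of the _s_ kind, was at 741, 580.4 and 485 at these times, with log2 ratios of -0.34 and -0.58. All 4 ratios, which share the 0 h array, lay below 0 and beyond the technical SD. The ratio of the brighter probe set at 24 h was just past 2-fold. Under quantile normalization it was -0.93 and with a loess trend removed -0.94, both short of 2-fold, and over 11 alternatives it ran from -1.04 to -0.38. The current gene table lists 9 transcripts of rme-1. Where the probes lie on them was not analysed here.

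The GTPase RAB-10 acts before RME-1 in basolateral recycling of the intestine. Its gene rab-10 (T23H2.5), with 1 probe set of the _s_ kind, was at 1410.5 at 0 h and at 1330.2 at both 4 h and 24 h, an exact tie. The log2 ratio to 0 h was -0.08 at both times, within the technical SD.

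The GTPase RAB-11 marks recycling endosomes that serve the apical face of the intestine and is also needed for secretion and cytokinesis in the early embryo. The brightest of the 3 probe sets of rab-11.1 (F53G12.1), of the _s_ kind, was at 4708 at 0 h, 4553 at 4 h and 3661 at 24 h (log2 ratio -0.36 at 24 h against 0 h). The next was at 588, 629 and 507 (-0.20), and the dimmest at 124, 174 and 174 (0.40). The brighter probe sets were lowest at 24 h, the dimmest was lowest at 0 h, and each of these 3 ratios lay within the technical SD. At 4 h the log2 ratios were -0.05, 0.09 and 0.40, and that of the dimmest lay beyond the technical SD of 0.24. The ratios of the brightest and the dimmest differed by 0.45 at 4 h and 0.76 at 24 h, more than the root mean square over all pairs at both times (0.34 and 0.66). The gene rab-11.2 encodes a close relative, and whether the _s_ probe set also detects its transcript was not analysed here.

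Late endosomes and lysosomes are represented by rab-7, cup-5 and lmp-1. The GTPase RAB-7 directs late endosomes to fuse with lysosomes. The brighter probe set of rab-7 (W03C9.3) was at 279.5 at 0 h and 4 h, a tie, and at 269.7 at 24 h. The dimmer was at 104 at 0 h and at 123 at both later times. No ratio of rab-7 to 0 h lay beyond the technical SD, the range being -0.05 to 0.18.

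The gene cup-5 (R13A5.1) encodes the worm mucolipin, a cation channel of lysosomes without which coelomocytes fill with large vacuoles. It was at 365 at 0 h and at 367 at 4 h and 24 h, a log2 ratio of 0.01 at both times. Of the 10 genes it was the only one within 0.01 of its 0 h level at both 4 h and 24 h.

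The gene lmp-1 (C03B1.12) encodes a membrane protein related to the LAMP proteins of mammalian lysosomes and has a pair of _s_ probe sets. The brighter was at 2630.4 at 0 h, 2786 at 4 h and 2630.4 at 24 h, so 24 h and 0 h were tied. The dimmer was at 1592 at 0 h, 2522 at 4 h and 3646 at 24 h, with log2 ratios of 0.65 at 4 h and 1.18 at 24 h against 0 h. The pair differed by 1.18 at 24 h, and no direction can be given for lmp-1 as a gene. The related gene lmp-2 was at 138 at 24 h against 272 at 0 h (log2 ratio -0.84), and its other kept probe set had a log2 ratio of -0.19.

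**Figure D2:**
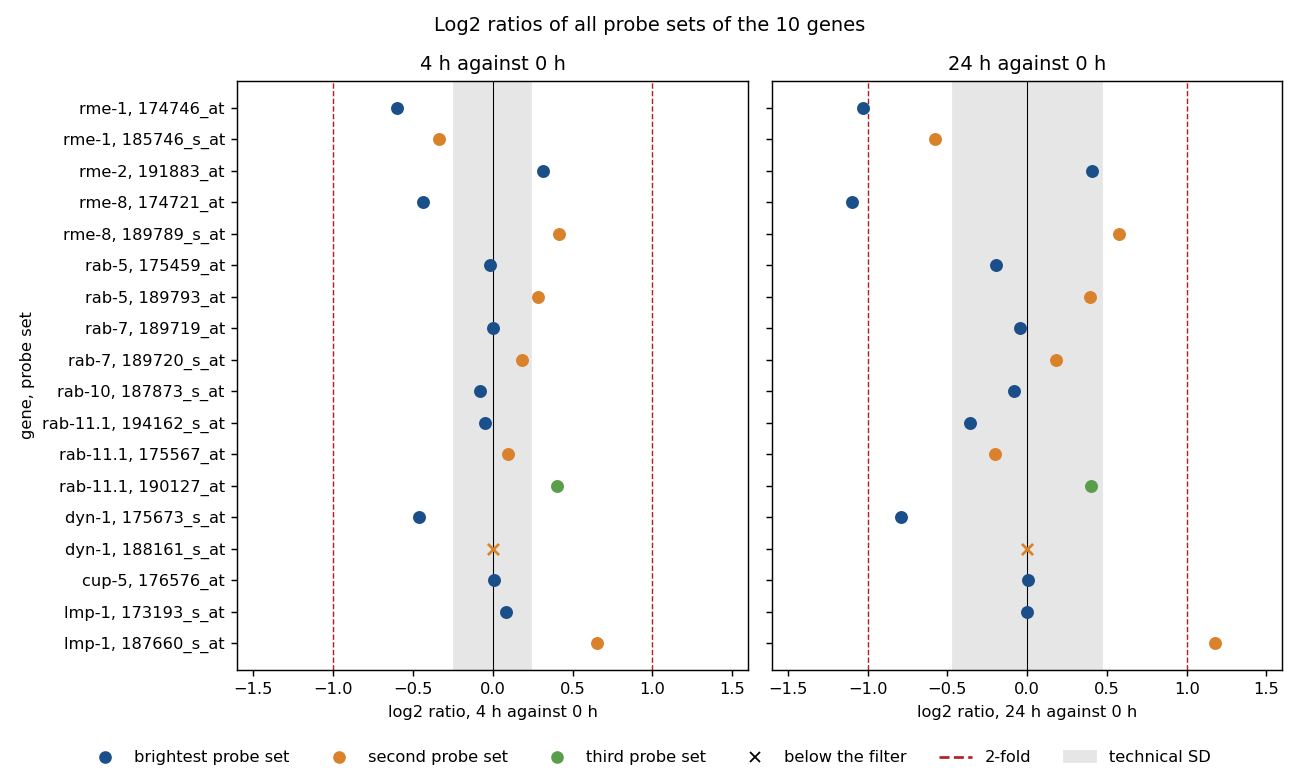
Log2 ratios of the 18 probe sets at 4 h against 0 h (left) and 24 h against 0 h (right), coloured by the order of brightness within the gene, with the technical SD of each comparison in grey and 2-fold as dashed lines. At 24 h the brightest probe sets of rme-1 (-1.03) and rme-8 (-1.10) pass the lower line and the second probe set of lmp-1 (1.18) the upper line.

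The pairs of probe sets of a gene were compared because 7 of the 10 genes have more than 1. Leaving out the dim probe set of dyn-1, 8 pairs from 6 genes could be compared. The brighter member of the pair had the lower ratio in 8 of 8 pairs at 4 h, at 24 h and at 24 h against 4 h. Over the 2 brightest probe sets of all 1830 genes this held in 76.1% of genes at 4 h and 78.6% at 24 h, with mean differences of -0.17 (SE 0.007) and -0.35 (SE 0.013) on the log2 scale. The direction of the disagreement in the 10 genes is thus that of the whole array. At 24 h the signs were opposite in 5 of 8 pairs, from rme-8, rab-5, rab-7 and rab-11.1. They were opposite in 37.4% of the 1830 genes, each read by its 2 brightest probe sets. A difference of at least 1 was found in 2 of 8 pairs, rme-8 and lmp-1, and in 11.4% of the 1830 genes. Counts of the 8 pairs and shares of the 1830 genes differ in unit, because rab-11.1 enters as several pairs that are not independent. By its 2 brightest probe sets rab-11.1 had the same sign at 24 h (-0.36 and -0.20). On that basis the opposite signs were those of rme-8, rab-5 and rab-7.

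The signal of control transcripts moved in the same arrays. The ratio of 5' to 3' signal at 0 h was 0.23 for the actin control, 0.034 for catalase, 0.38 for GAPDH and 0.026 for ubiquitin. For each control the ratio was lowest at 0 h. It was higher at 24 h than at 0 h in 4 of 4, with a median log2 difference of 0.56, and of 0.32 at 4 h. The part of this shift in the disagreement between probe sets was not tested. Exact ties between arrays were found in 2 of the 18 probe sets for 4 h and 0 h, 2 for 24 h and 0 h and 5 for 24 h and 4 h, where 27.8%, 18.04% and 22.2% of all probe sets were tied.

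**Figure D3:**
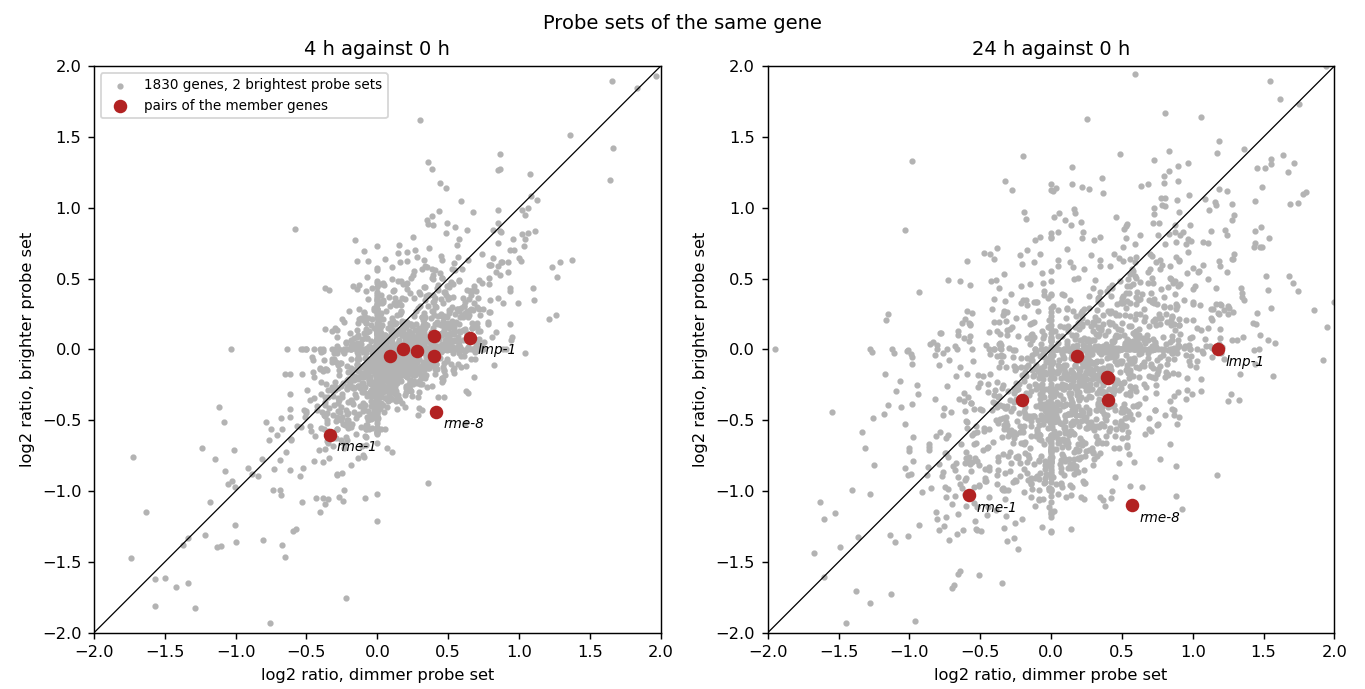
Log2 ratio of the brighter against that of the dimmer probe set of the same gene at 4 h against 0 h (left) and 24 h against 0 h (right), for 1830 genes in grey and the 8 pairs of the endocytosis and endosome genes in red, with the line of equal ratios; 4 and 38 genes with a ratio beyond 2 in size are outside the axes. All 8 red points lie below the line in both panels (a pair of rab-11.1 and that of rab-5 overlap at 24 h), and rme-8 and lmp-1 lie farthest from it at 24 h.

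The size of the ratios, and the direction of some of them, depends on the scale of the arrays. The 9 probe sets for bacterial hybridisation controls, transcripts added to the labelled sample, had a mean log2 ratio of -0.45 at 4 h and -0.66 at 24 h against 0 h. With the arrays scaled on them, the median of all genes was 0.43 at 4 h and 0.61 at 24 h, and 1896 genes were higher and 318 lower at 24 h, against 459 and 687 as deposited. At 4 h, 81.7% of the genes past 2-fold were higher on that scale, against 34.5% as deposited. On that scale rme-2 was higher at 24 h (log2 ratio 1.06), and rme-1 (-0.38), rme-8 (-0.48) and dyn-1 (-0.19) were no longer near 2-fold. The dimmer probe set of rme-1 had log2 ratios of 0.09 at 4 h and 0.05 at 24 h on that scale. Relative to the median of all genes on that scale, rme-8 stood at -1.09, rme-1 at -0.98, dyn-1 at -0.80 and rme-2 at 0.45 at 24 h. Directions in the text are therefore relative to the other genes measured.

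By their brightest probe sets, other genes of the endocytic pathway were read from 13 lists, with 172 genes besides the 10, of which 163 have a probe set and 145 passed the filter. At 24 h, 0 of the 145 were higher and 3 lower, and at 4 h, 0 were higher and 1 lower, with a median of 0.00 both times. The lower genes at 24 h were tbc-2, hgrs-1 and vit-1, and the lower gene at 4 h was vit-1 (log2 ratio -1.29). Of all genes, 5.32% were higher and 7.96% lower at 24 h, and 1.71% were higher and 3.25% lower at 4 h. The shares of the 145 genes lie below these on each side at both times. By other kept probe sets at 24 h, epn-1 and mtm-3 (both 1.13) were past 2-fold on the higher side and apg-1 (-1.08) on the lower side.

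The gene tbc-2 encodes a GTPase-activating protein for RAB-5 that acts in the conversion of early to late endosomes. It was at 737 at 24 h against 1829 at 0 h by its brightest probe set (log2 ratio -1.27), and its other probe sets had log2 ratios of -0.79 and 0.07. The early endosome tether gene eea-1 was at 1387 against 2764 (-0.98), with -0.63 by its other probe set. The retromer gene vps-26 had a log2 ratio of -0.48 by its brighter probe set and 0.90 by its dimmer one. Of 16 early endosome and retromer genes, 0 were higher and 1 lower at 24 h (median -0.02).

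Of 16 genes of ESCRT and its partners, which sort ubiquitinated cargo into late endosomes, 1 was lower at 24 h (median -0.02). This was hgrs-1, for the Hrs subunit that binds such cargo first, at 1272 against 2822 at 0 h (-1.13), with -0.39 by its other probe set. The genes usp-50 and vps-20 had log2 ratios of -0.91 and -0.60 by their brightest probe sets, and of -0.04 and 0.00 by their other kept ones.

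Among 17 clathrin and AP-2 genes, which form and assist the coat of incoming vesicles, none passed 2-fold at either time by its brightest probe set (median 0.00). The extremes named by rule were the AP-2 subunit gene apa-2 (0.91 at 24 h), the clathrin light chain gene clic-1 (0.82) and the endophilin gene unc-57 (0.73). For apa-2 and clic-1 the other kept probe sets had log2 ratios between 0.00 and 0.10. For epn-1 the brighter probe set had 0.28 and the dimmer 1.13 at 24 h. Of 7 AP-1 and AP-3 genes, none passed 2-fold by its brightest probe set (median 0.11 at 24 h), with apg-1 at -0.92 (-1.08 and -0.16 by its other kept probe sets), apm-1 at 0.86 and apm-3 at 0.70.

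None of 16 recycling endosome genes besides the 10 passed 2-fold (median 0.00 at 24 h). The exocyst gene exoc-7 had log2 ratios of -0.95 and 0.03 by its kept probe sets. Another exocyst gene, sec-10, had a log2 ratio of 0.55, and sdpn-1, for the syndapin that works with RME-1, had 0.50. Among 12 other Rab genes, 0 were higher or lower at 24 h against 0 h (median 0.02). The synaptic vesicle gene rab-3 was at 1261 at 24 h against 666 at 0 h (0.89), and at 24 h against 4 h it was higher (1.23). Next were rab-21 (0.80) and rab-39 (0.51). Of 5 other genes for dynamin-family and EH-domain proteins none passed 2-fold (median 0.00), with the mitochondrial fission gene drp-1 at -0.71 by its brighter and -0.003 by its dimmer probe set, fzo-1 at 0.35 and eat-3 at 0.00.

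Genes of late endosome fusion and of lysosomes also stayed within 2-fold. Of 10 HOPS, CORVET and late endosome fusion genes (median 0.00 at 24 h), sand-1, for the factor that exchanges RAB-5 for RAB-7, had a log2 ratio of 0.79, snx-14 of -0.76 (0.00 by its other kept probe set) and vps-41 of 0.17. Of 10 lysosome and lysosome-related organelle genes (median 0.08), lmp-2 had -0.84, the lipid kinase gene ppk-3 had -0.74 (0.07 by its other kept probe set) and the cholesterol transport gene ncr-1 had 0.73. Of 19 V-ATPase genes, whose products acidify the pathway, none passed 2-fold, with a median of -0.17 at 4 h and 0.00 at 24 h. The largest V-ATPase ratios at 4 h were those of vha-12 (-0.83) and vha-11 (-0.66, and -0.35 by its other probe set), and unc-32 had 0.88 at 24 h.

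Uptake lists of particular cells were small. Of 6 coelomocyte uptake genes only 3 passed the filter, cup-2 (0.71 at 24 h), mtm-9 (-0.30, and 0.36 by its other probe set) and mtm-6 (0.26), and the coelomocyte markers cup-4 and unc-122 did not. Of 11 genes of apoptotic cell engulfment, none passed 2-fold, and the median was -0.46 at 24 h, with ced-6 at -0.85, ced-5 at -0.81 and ced-7 at -0.77. These are ratios of the brightest probe sets, and the second kept probe sets were level or above 0 at 24 h, with ced-6 at 0.18, ced-5 at 0.13, ced-7 at 0.00, ced-1 at 0.24, ced-2 at 0.00 and lst-4 at 0.06. Of 7 LDL receptor and yolk genes, 1 was lower at both times, vit-1.

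**Figure D4:**
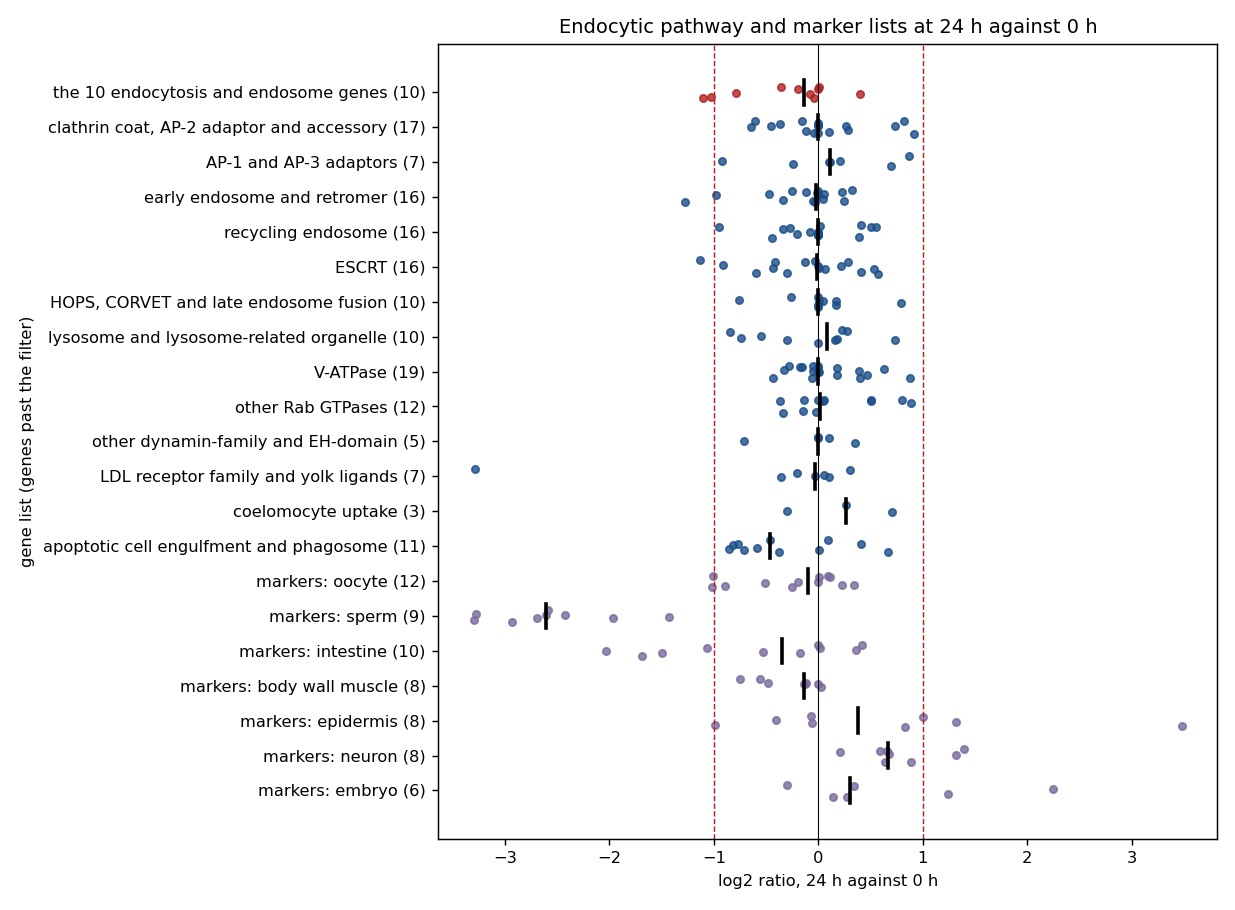
Log2 ratio at 24 h against 0 h of each gene past the filter in the list of 10 (red), in 13 other lists of the endocytic pathway (blue) and in 7 lists of cell type markers (purple), with the list median as a black bar, 2-fold as dashed lines and the number of genes in brackets. Pathway genes crowd around 0 with rme-8, rme-1, tbc-2, hgrs-1 and vit-1 past the lower line, while all 9 sperm markers lie past it.

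Markers of whole cell types moved in the same arrays. For the counts below, 5.32% of all genes were higher and 7.96% lower at 24 h against 0 h. At 4 h, 1.71% were higher and 3.25% lower. Of 9 sperm markers past the filter, 9 were lower at 24 h and 1 at 4 h (medians -2.60 and -0.67), and their intensities summed to 27702 at 0 h, to 18205 at 4 h and to 3784 at 24 h. Their log2 ratios at 24 h ran from -3.30 (msp-64) and -3.27 (msp-142) through nspd-1, ssp-16, ssp-10, msp-31, gsp-3 and gsp-4 to -1.43 (spe-11). All but ssp-16 and spe-11 were read by _x_ probe sets, treated here like the _s_ kind as shared between transcripts. The sperm markers may therefore not be separate readings. Of 10 intestine markers, 4 were lower at 24 h and 3 at 4 h, and the sums at the 3 times were 29807, 25457 and 24636. Those lower at 24 h were pho-1 (-2.03), act-5 (-1.69), lbp-6 (-1.50) and pept-1 (-1.07). The intestinal regulator gene elt-2 was level (0.02). Of 8 neuron markers, 2 were higher at 24 h, egl-21 (1.39) and ric-4 (1.31), with a median of 0.67. The neuron marker snb-1 had 0.68 by its brightest probe set and 1.29 by its other kept one. Of 8 epidermis markers 3 were higher at 24 h, dpy-17 (3.48), nhr-25 (1.32) and dpy-7 (1.00), while rol-6 (-0.99) was just short of 2-fold lower and 4 of the 8 lay below 0 (median 0.38). Of these 4, sqt-3 had -0.07 by its brightest probe set, of the _x_ kind, and 1.92 by its other kept one. Of 6 embryo markers 2 were higher, hch-1 (2.24) and ceh-22 (1.25). The embryo marker pal-1 had -0.30 by its brightest probe set and 0.20 and 1.03 by its other kept ones. At 0 h ceh-22 was at 62.1, under the background floor of 67.8, and hch-1 at 99.7, under the filter intensity of 103.9. Both passed the filter by their mean over the arrays. The 8 body wall muscle markers (median -0.14, lowest unc-27 at -0.75) had none past 2-fold by their brightest probe sets. Nor had the 10 reference genes (median 0.05, lowest eif-3.C at -0.84, and 0.12 by its other probe set). The dimmer probe set of the reference gene cdc-42 had 1.18 at 24 h. The part of these shifts in the ratios of rme-1, rme-8 and dyn-1 was not tested.

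Of the 10 genes, rme-8 had the largest ratio at 24 h by its brightest probe set, and the genes nearest to it in the pair of ratios at 4 h and 24 h were found by Euclidean distance over all 8634 genes. They were emr-1, for the nuclear envelope protein emerin, spat-1, B0454.5, npp-8, for a nucleoporin, and gei-14, at distances from 0.01 to 0.03. The nearest, emr-1, was at 929.9 at 0 h, 679 at 4 h and 413 at 24 h, with log2 ratios of -0.44 and -1.11. With 3 arrays, a likeness of this kind rests on 2 ratios per gene.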

How the data were processed

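Per the labels' protocols, a column kit served to isolate total RNA, and biotin was introduced by 3' in vitro transcription. The authors deposited normalized intensities on a linear scale. The tools named per the submitters' processing notes are MAS5, RMA and version 1.1 of Affymetrix Expression Console. What each did is not given in the sources used here. Only the 20766 of 22625 probe sets with 1 annotated gene were used, which leaves out 887 with several genes, 895 with none and 77 controls. Symbols were updated by gene ID for 20701 of them from the WBcel235 gene table, used for names only.

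The filter lay at a log2 value of 7.09 (an intensity of 103.9). The technical SD is the root mean square difference between the 2 brightest kept probe sets of a gene, divided by the square root of 2. The background floor is the highest of 8 controls for absent transcripts on 3 arrays. Named genes are the 10, up to 3 per other list with the largest ratio to 0 h, every one past 2-fold, and the 5 nearest to 1 gene. Named outside this rule after the values were seen are vit-5, vit-6, cup-4, unc-122, elt-2, rab-11.2, rol-6, ced-1, ced-2, lst-4, epn-1, mtm-3 and cdc-42. The genes sqt-3, snb-1 and pal-1 were also named in this way. The 10 genes and the lists were chosen with earlier results of these data known. The scripts were tested on simulated data. Alternatives were other array scalings, pseudocounts, filters, thresholds and choices of probe set. Python 3.11.15, numpy 2.4.6, pandas 2.3.3 and statsmodels 0.14.6 were used.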

Additional observations from a re-analysis of the deposited data

How the results depend on the processing

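The count of 2 lower genes of the 10 at 24 h against 0 h was 1 under quantile normalization (rme-8), with a loess trend removed (rme-8), and with a pseudocount of 100 (rme-1). Of all genes, 652, 674 and 546 were lower in these settings, of 8634, 8634 and 8636 measured. The count for the 10 was 0 when kept probe sets of a gene were averaged and 0 at 3-fold. Of all 8634 genes, 628 and 319 were lower there. With the dimmest probe set 1 gene was past 2-fold, lmp-1, on the higher side, and with scaling on hybridisation controls 1, rme-2, on the higher side. Over all genes, 526 of 8634 were higher with the dimmest probe set and 1896 of 8631 with that scaling. At 1.5-fold 1 gene was lower at 4 h against 0 h, and 1 at 24 h against 4 h. Of all 8634 genes, 722 and 798 were lower in these comparisons at 1.5-fold. At 24 h against 0 h rme-1, rme-8 and dyn-1 were lower at 1.5-fold, where 1495 of 8634 genes were lower. The log2 ratio of rme-8 at 24 h reversed to 0.57 with the dimmest probe set. Medians of the 10 genes moved to 0.40 (4 h) and 0.51 (24 h) with scaling on hybridisation controls and to 0.23 (4 h) with the dimmest probe set, while the median at 24 h was 0.29 with the dimmest probe set, and 30 of 33 moved by less than the technical SD. Of 312 values of single members under these alternatives 273 did so too. The median of all genes with the dimmest probe set was 0.007 at 4 h and 0.02 at 24 h against 0 h.

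Over all genes, in the order 4 h and 24 h against 0 h and 24 h against 4 h, the counts past 2-fold were 429, 1146 and 475. Filtering at the 75th percentile left 183, 540 and 215, and the counts were 1253, 2739 and 1389 at 1.5-fold and 131, 453 and 174 at 3-fold. With scaling on hybridisation controls they were 667 and 2214 for the comparisons with 0 h. Without _x_ and _s_ probe sets, which left 5690 genes, they were 751 (24 h against 0 h) and 276 (24 h against 4 h). Filters and thresholds change these counts by construction; for the other changes the cause was not tested. Signal over background limits the second probe set of dyn-1, which lies under the floor on all arrays. No paired analysis was possible because each time has 1 array. No replicate could be left out for the same reason.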
